A study of Homo sapiens with 12 samples.

Results

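The comparison was that of Hs 578T cells overexpressing NRF2 that were kept without cystine (w/o Cyss) against the same cells kept with cystine (w Cyss), at 8 h. It rests on the 3 RNA-seq libraries labelled as NRF2-overexpressing in Cyss-depleted medium and the 3 labelled as NRF2-overexpressing in control medium, chosen by these labels alone, so 6 of the 12 libraries of the study. Hs 578T is an established triple-negative breast cancer line. All cells grew in DMEM with serum and insulin, and for the treatment they were moved to a DMEM made without glutamine, methionine and cystine, to which serum, 0.2 mM methionine, antibiotics and 2 mM glutamine were added back. Control cultures also received 0.8 mM L-cystine, and deprived cultures received 0 mM. The other 6 libraries were GFP-expressing Hs 578T cells in the same media, 3 with Cyss and 3 without, and they are used here only to show where the response of the NRF2 cells differed. Exogenous full-length NRF2 or GFP was delivered by lentivirus, so both kinds of cell had been transduced, and the share of cells that carried a vector was not measured here. The full-length protein keeps the domain through which KEAP1 binds NRF2, and a single line at a single time limits what the cells can stand for. The promoter of the vector is not given in the sources used here.

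NRF2, encoded by NFE2L2, is a transcription factor that is held in the cytoplasm and marked for degradation by KEAP1 and that, once stable, binds antioxidant response elements next to genes for glutathione synthesis, thioredoxin reduction, NADPH supply and the disposal of reactive aldehydes and quinones. Cystine is the oxidised, extracellular form of cysteine. It enters the cell through SLC7A11 in exchange for glutamate and is reduced to cysteine, which limits the synthesis of glutathione and is needed for protein synthesis. When an amino acid runs short, uncharged tRNAs activate the kinase GCN2, phosphorylated eIF2alpha slows general translation, and the factor ATF4 is translated and turns on genes for amino acid uptake, amino acid synthesis and tRNA charging, a programme known as the integrated stress response.

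The libraries held between 27334061 and 35074133 reads on genes in NRF2 cells and between 29121935 and 44734611 in GFP cells. One library stood apart from its group: NRF2 cells w/o Cyss replicate 1 had 7.84% of its reads outside annotated genes against 6.25% to 6.69% in the other 5, and lay at -23.9 on the second principal component (16.8% of the variance) where replicates 2 and 3 lay at 4.64 and 17.3. Pairs of replicates varied more without Cyss (chi-square per degree of freedom 5.08 to 11.7) than with it (2.11 to 2.53), so no 2 replicates agreed within counting noise. Without Cyss the value was 5.85 for replicates 1 and 2, 5.08 for 2 and 3 and 11.7 for 1 and 3. By this measure replicate 1 did not stand apart alone. The labels call the cells an epithelial tumor line. The defining epithelial genes EPCAM, KRT19, ESRP1 and GRHL2 were at 0 to 2.88 normalized counts in every NRF2 library, and CDH1 was at 2.88 to 8.88, whereas KRT18 (723 to 1246) and KRT8 (141 to 217) of the same list were expressed, and KRT18 was higher without Cyss. All 10 mesenchymal markers were detected, with vimentin (VIM) at 133280 to 156508. Of the leukocyte markers CD3E was at 0, ITGAM reached 0.995, CD68 18.9, CD14 27.9 and PTPRC 33.1, and of the endothelial ones CDH5 reached 2.28 while KDR (34.2 to 75.6) was higher without Cyss. The part of such cells in the results was not tested. NFE2L2 itself had 6174, 6184 and 6469 with Cyss and 6923, 7619 and 7822 without in normalized counts, a log2FC of 0.25, which is below the fold change required here. NFE2L2 reads may include those of the vector.

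Removal of Cyss changed the transcriptome of NRF2 cells in both directions, with a gain of amino acid stress, ERK-feedback, inflammatory and matrix-degrading genes and a loss of NRF2 target, DNA replication and interferon-stimulated genes. A gene was called a DEG at an adjusted p under 0.1 in edgeR's quasi-likelihood test and a log2FC above 0.32 or below -0.32, where log2FC is the log2 ratio of w/o Cyss to w Cyss. Of 17266 genes tested, 1176 (6.81%) were upregulated and 887 (5.14%) were downregulated, so upregulated genes made up 57.0% of the DEGs. Scaled by library size alone, which moves the median of all genes from -0.01 to -0.07, the counts were 936 and 1397 and the upregulated share was 40.1%. Rises were the larger changes: 197 genes rose over 2-fold and 67 fell over 2-fold. The 3 libraries without Cyss lay entirely above the 3 with Cyss for 1134 upregulated DEGs and entirely below for 852 downregulated DEGs. DEGs were called by a test on these same libraries, so this separation is no further evidence for them. The share of all tested genes that separated in this way is not given. As the labels do not say whether replicates were separate cultures, the p-values measure the spread between these libraries, which may be technical. Reads were counted without regard to strand, so a gene cannot be told apart from an antisense partner that overlaps it.

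The same removal of Cyss in GFP cells gave 274 upregulated (1.57%) and 93 downregulated (0.533%) DEGs of 17452 tested. An interaction term fitted over all 12 libraries compares the 2 responses directly, and at an adjusted p under 0.1 it placed 1585 genes (8.97%) higher and 1084 (6.13%) lower in NRF2 than in GFP cells, of 17674 tested. Among the upregulated DEGs of NRF2 cells 692 had a response higher than in GFP cells and 17 a lower one, and among the downregulated DEGs 394 had a lower response and 1 a higher one. Upregulated DEGs shared with GFP cells made up 15.7% of the NRF2 list and 67.5% of the GFP list, and shared downregulated DEGs made up 4.74% and 45.2%. No gene was upregulated in 1 population and downregulated in the other. Across the 17048 genes tested in both populations the log2FCs correlated with Pearson's r 0.317 and Spearman's rho 0.214, a description over genes, which are not independent replicates.

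**Figure D1:**
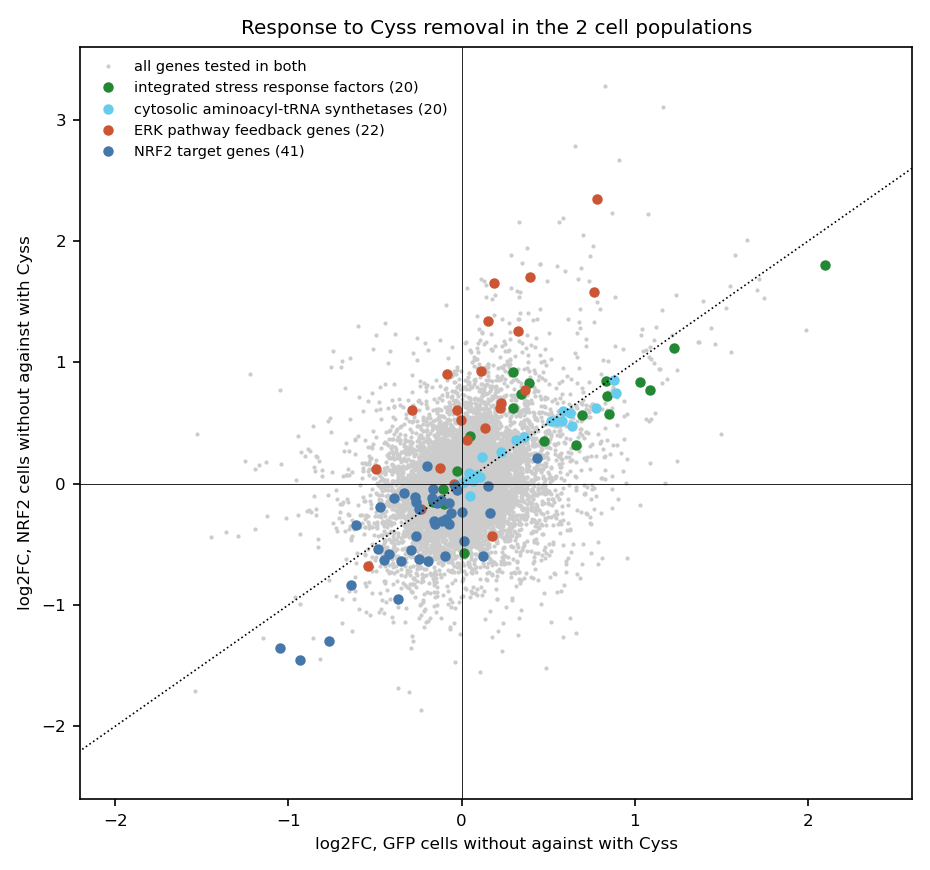
Response to removal of Cyss in GFP cells (x axis, log2FC) and in NRF2 cells (y axis, log2FC), 1 point per gene tested in both, with 4 lists coloured and equal responses on the dotted line. The synthetase genes lie along that line, the ERK-feedback genes mostly above it (DUSP6 at 0.78 and 2.35), and TRIM16L (-0.93 and -1.45) below it.

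Genes of the amino acid response rose in NRF2 and in GFP cells. In NRF2 cells 14 of 21 tested integrated stress response factors rose and 1, CEBPD, fell (median log2FC 0.62, against -0.01 over all genes), and in GFP cells 12 of 20 rose. The interaction, which tests the difference between the 2 responses, placed 4 members higher and 5 lower in NRF2 cells, the lower count being 9 without NRF2 w/o Cyss replicate 3 and 2 without GFP w/o Cyss replicate 2. ATF4 (chromosome 22, 39915700 to 39918688 on GRCh37), the factor that runs this programme, had 6400.1, 6757 and 6980.0 with Cyss and 9977, 11102 and 12130.0 without in normalized counts (log2FC 0.72, standard error 0.0624, edgeR adjusted p = 9.01e-07). All 3 deprived libraries exceeded all 3 controls. CHAC1 (chromosome 15, 41245160 to 41248710), an ATF4 target whose enzyme degrades glutathione, had 526, 457 and 486 with Cyss and 1640.1, 1679 and 1808 without (log2FC 1.81, standard error 0.0649, edgeR adjusted p = 1.92e-10). The groups were far apart, and the rise was nonetheless smaller than in GFP cells (log2FC 2.098 in GFP cells and 1.81 in NRF2 cells, difference -0.29, standard error 0.0869, edgeR adjusted p = 0.0428). The ATF4 partners CEBPB (0.74) and CEBPG (0.85), the stress factor ATF3 (1.12) and the pseudokinases TRIB1 (0.92) and TRIB3 (0.84), which restrain signalling, rose as well. GDF15, a secreted stress cytokine, had the largest fold of the list from few reads, 7.98, 0.990 and 0 with Cyss and 9.95, 16.3 and 18.4 without. DDIT3, which encodes the ATF4 partner CHOP, had a log2FC of 0.32 that stopped short of the threshold and passed it without NRF2 w Cyss replicate 1 or 3 or NRF2 w/o Cyss replicate 1 (0.37, 0.32 and 0.38), and the gene overlaps the synthetase gene MARS on the opposite strand. The sensor kinase genes EIF2AK4 (GCN2, -0.04) and EIF2AK3 (PERK, -0.17) and the factor ATF5 (-0.15) were not called.

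The promoters of CHAC1 and ASNS (asparagine synthetase) are shown because each holds a match to the short element that ATF4 dimers bind, with 250 bases before the annotated start in RefSeq on GRCh38.p14, 5′ to 3′ on the strand of the gene, and the motif TGATGNAA (or its reverse complement) in capitals.
CHAC1, chr15:40953221-40953470, plus strand: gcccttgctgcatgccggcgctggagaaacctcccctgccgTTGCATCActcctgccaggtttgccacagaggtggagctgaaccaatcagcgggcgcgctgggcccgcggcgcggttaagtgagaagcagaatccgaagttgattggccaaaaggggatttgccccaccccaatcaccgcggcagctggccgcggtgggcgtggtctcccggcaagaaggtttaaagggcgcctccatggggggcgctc
ASNS, chr7:97872409-97872658, minus strand: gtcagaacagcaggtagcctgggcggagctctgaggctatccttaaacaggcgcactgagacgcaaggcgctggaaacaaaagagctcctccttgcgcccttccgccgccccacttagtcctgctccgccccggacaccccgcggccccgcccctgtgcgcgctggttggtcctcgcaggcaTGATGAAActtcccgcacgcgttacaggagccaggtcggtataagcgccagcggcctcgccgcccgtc
The motif starts 209 bases before the start of CHAC1, on the reverse strand, and 68 bases before that of ASNS. In windows of 300 bases, which add 50 after the start, TGATGNAA stood on either strand in 3.67% of all 27305 promoters, in 1.81% of the 10727 promoters matched to tested genes, in 40 of 754 (5.31%) of upregulated DEGs and in 7 of 553 (1.27%) of downregulated DEGs. It stood in 6 of the 10 upregulated cytosolic synthetase genes with a promoter, AARS, CARS, IARS, MARS, NARS and TARS. Among upregulated serine, one-carbon and proline enzymes it was found in 4 of 9, ASNS, BCAT1, GOT1 and MTHFD1L. This form of the motif was chosen after a longer form, TGATGNAAT, had been counted, which stood in 12 of the 754 upregulated promoters and 1 of the 10 synthetase promoters. A match describes the letters and was not tested as a binding site, and the shares given for other motifs count the same windows on both strands.

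Genes of tRNA charging rose in part. Of the 20 cytosolic aminoacyl-tRNA synthetases, 11 rose and 0 fell in NRF2 cells (median 0.37), and 10 rose in GFP cells. Glycyl- (GARS, 0.85), cysteinyl- (CARS, 0.75), methionyl- (MARS, 0.62), threonyl- (TARS, 0.60), tryptophanyl- (WARS, 0.58) and glutamyl-prolyl-tRNA synthetase (EPRS, 0.51) were among them. CARS, which charges the tRNA of the missing amino acid, had 2910.4, 2926 and 2975 with Cyss and 4636, 4964 and 5167 without, with no overlap. Lysyl- (KARS, 0.02) and aspartyl-tRNA synthetase (DARS, 0.01) were not called. The interaction placed 0 of the list higher and 1 lower in NRF2 cells, or 4 lower without NRF2 w/o Cyss replicate 3 and 0 without NRF2 w/o Cyss replicate 2 or GFP w/o Cyss replicate 1 or 2. Of the 17 mitochondrial synthetases, 2 rose, PARS2 (0.40) and MARS2 (0.34), and MARS2 lost the call when libraries were scaled by size alone.

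Enzymes that make amino acids and one-carbon units rose in 13 of 27 cases and fell in 0 (median 0.19). ASNS had 2768, 2828 and 2798 with Cyss and 5839, 6356 and 6686 without (log2FC 1.17, standard error 0.0527, edgeR adjusted p = 1.89e-09). MTHFD2, the mitochondrial one-carbon dehydrogenase, had 3646, 3603 and 3575 with Cyss and 7291, 7859 and 7909 without (log2FC 1.09, standard error 0.0468, edgeR adjusted p = 1.39e-09). Every deprived library was above every control for both genes. GPT2, the mitochondrial alanine aminotransferase (1.23), PCK2, the mitochondrial PEP carboxykinase (1.15), and PSAT1, the aminotransferase of serine synthesis (0.94), rose too. GFP cells had 13 rises in this list, and the interaction placed 5 members lower and 1 higher in NRF2 cells, the lower count being 1 without GFP w/o Cyss replicate 2 and 3 without GFP w/o Cyss replicate 3 or NRF2 w/o Cyss replicate 2. ASNS, MTHFD2 and PSAT1 have processed pseudogenes that can share reads with them.

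Amino acid transporters rose in 9 of 22 cases, with 0 falls (median 0.23). GFP cells had 6 rises and 1 fall, and the interaction placed 8 higher and 2 lower in NRF2 cells, against 8.97% and 6.13% of all genes. SLC7A2, a cationic amino acid transporter, led with 2614, 2555 and 2537 with Cyss and 5867, 6009 and 6242 without (log2FC 1.23, standard error 0.0456, edgeR adjusted p = 1.92e-10), and its rise exceeded that of GFP cells (log2FC 0.17 in GFP cells and 1.23 in NRF2 cells, difference 1.07, standard error 0.105, edgeR adjusted p = 1.12e-04). The glutamine and neutral amino acid carriers SLC38A1 (0.89), SLC1A4 (0.67) and SLC1A5 (0.54), the glycine transporter SLC6A9 (0.75), the arginine transporter SLC7A1 (0.58) and the leucine exchanger SLC7A5 (0.58) rose. The cystine importer SLC7A11 was not among them. Its normalized counts were 7893, 7607 and 6936 with Cyss and 7974, 7623 and 6534 without, overlapping between media (log2FC -0.02, standard error 0.0675, edgeR adjusted p = 0.865), and in GFP cells its log2FC was -0.04. Its heavy chain partner SLC3A2 had a log2FC of 0.22 and was not called.

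Genes that make cysteine from methionine rose in part. CBS (0.75) and CTH (0.62), the pair of enzymes of transsulfuration, and MTAP (0.51), which salvages methionine, were the 3 rises of 20 genes, and CSAD (-0.37) and TST (-0.38), which handle products of cysteine, were the 2 falls. CTH had 163, 147 and 158 with Cyss and 233, 257 and 229 without. CBS had 1305, 1213 and 1315 with Cyss and 2114, 2036 and 2291 without. The calls of CSAD and TST were lost on leaving out single libraries. Among 27 genes that brake mTORC1, the growth kinase complex, or belong to nutrient sensing, 4 rose and 2 fell. SESN2, the leucine-sensing sestrin induced by ATF4, had 731, 679 and 711 with Cyss and 2208, 2241 and 2396 without (log2FC 1.69, standard error 0.0555, edgeR adjusted p = 1.25e-10), while its relative SESN3 fell (-0.74) and SESN1 had -0.23 without a call. DDIT4 (REDD1) rose by 1.27 in NRF2 cells, less than in GFP cells (log2FC 1.99 in GFP cells and 1.27 in NRF2 cells, difference -0.72, standard error 0.0743, edgeR adjusted p = 1.22e-04). TFEB (0.50), the master factor of lysosome genes, rose, and 1 of 42 listed lysosome genes, TFEB itself, did so and 1, GLA, fell.

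Of 36 chaperone and unfolded protein response genes 4 (11.1%, against 6.81% of all genes) rose and 0 fell (median 0.03). The risers were the sensor ERN1 (1.04), the factors XBP1 (0.52) and CREB3L2 (0.40) and the degradation component HERPUD1 (0.62), and the chaperones HSPA5 (0.09) and HSP90B1 (0.04) were not called.

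**Figure D2:**
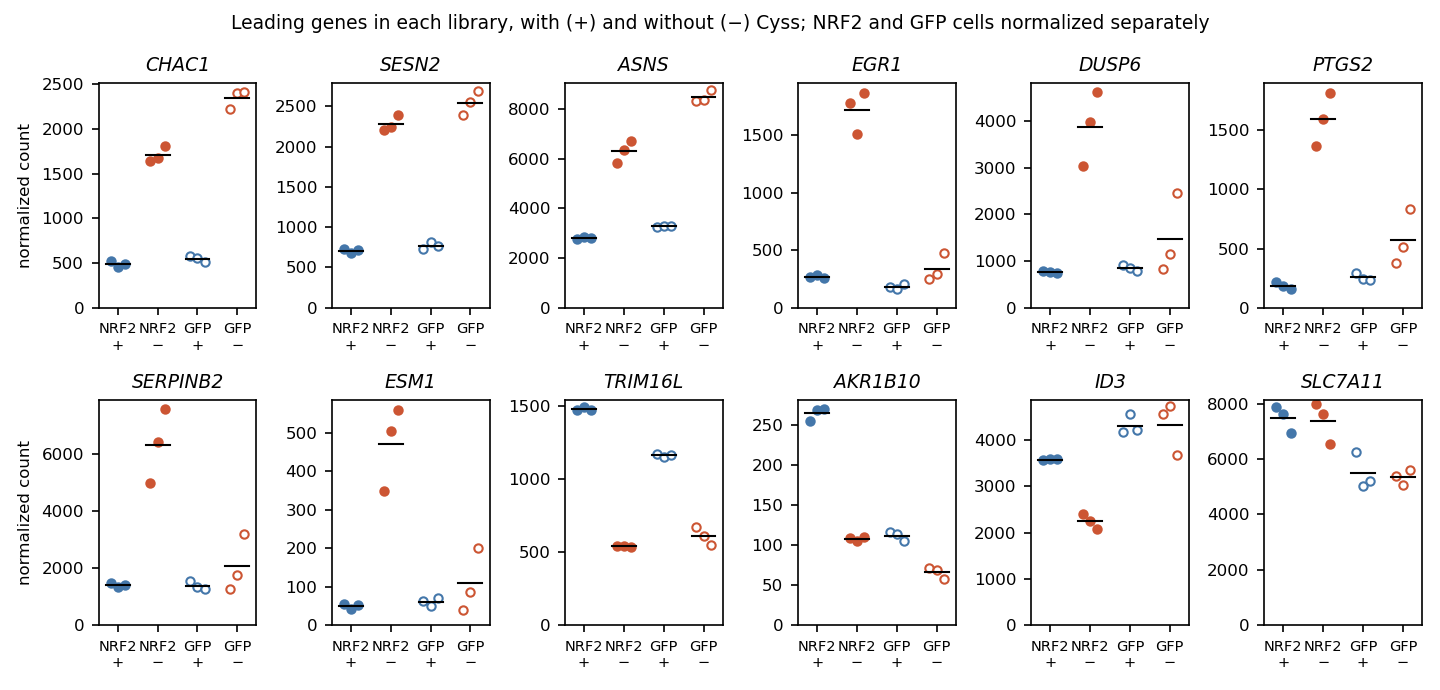
Normalized counts (y axis, linear from 0) of leading genes in each of the 12 libraries, with 1 point per library and a line at the mean of each group, NRF2 and GFP cells being normalized separately. In NRF2 cells the 3 libraries without Cyss lie above all 3 with Cyss for CHAC1, EGR1 and PTGS2 and below for TRIM16L, and for SLC7A11 the media overlap.

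The second large rise was that of immediate early factors and of the feedback genes of the ERK kinase pathway, and it set NRF2 cells apart from GFP cells. Among 26 immediate early factors, 15 rose and 1, JUND, fell (median 0.50). In GFP cells 1 rose, and the interaction placed 14 higher and 0 lower in NRF2 cells, the higher count being 9 without GFP w/o Cyss replicate 1. EGR1 (chromosome 5, 137801168 to 137804992 on GRCh37), a zinc finger factor induced within minutes by ERK, had 269, 281 and 259.6 with Cyss and 1779, 1510.4 and 1870.4 without (log2FC 2.67, standard error 0.0839, edgeR adjusted p = 1.25e-10). In GFP cells it had 178, 162 and 205 with Cyss and 249, 291 and 479.9 without, and the responses differed (log2FC 0.91 in GFP cells and 2.67 in NRF2 cells, difference 1.76, standard error 0.234, edgeR adjusted p = 6.39e-04). Its family members EGR2 (1.24) and EGR3 (2.23) and the AP-1 subunits FOS (1.03), JUN (0.81) and FOSL1 (0.54) rose as well. JUND fell by a log2FC of -0.33 and lost the call on leaving out single libraries.

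The promoter of EGR1 is shown because it holds 2 matches to the CArG box, the site of serum response factor, here in capitals, 105 and 83 bases before the start.
EGR1, chr5:138465229-138465478, plus strand: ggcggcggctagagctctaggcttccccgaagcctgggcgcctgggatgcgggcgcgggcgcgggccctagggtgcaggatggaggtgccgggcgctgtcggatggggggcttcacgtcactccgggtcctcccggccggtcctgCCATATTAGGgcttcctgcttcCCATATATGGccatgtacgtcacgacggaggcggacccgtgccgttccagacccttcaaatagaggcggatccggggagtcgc
The CArG box stood in 1.29% of all promoters, in 1.17% of those of tested genes, in 11 of 754 (1.46%) of upregulated DEGs and in 1.27% of downregulated DEGs.

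ERK feedback genes, which ERK induces and whose products damp the same pathway, rose in 16 of 22 cases and fell in 1, DUSP8 (-0.67), with a median of 0.62. DUSP6, the cytoplasmic ERK phosphatase, had 783, 758 and 739 with Cyss and 3026, 3967 and 4617 without (log2FC 2.35, standard error 0.115, edgeR adjusted p = 3.02e-09). In GFP cells DUSP6 had 914, 856 and 797 with Cyss and 836, 1148 and 2447 without, where replicate 3 was the highest (log2FC 0.78 in GFP cells and 2.35 in NRF2 cells, difference 1.57, standard error 0.349, edgeR adjusted p = 0.00963). SPRY2 had 484, 493 and 524 with Cyss and 1358, 1637 and 1896 without and SPRY4 rose by 1.66, both inhibitors of receptor tyrosine kinase signalling. The nuclear ERK phosphatases DUSP4 (0.90) and DUSP5 (1.34), the Ras inhibitor SPRED2 (0.93), the EGFR inhibitor ERRFI1 (1.58) and the ETS factors ETV4 (0.63) and ETV5 (0.77) rose, whereas SPRY1 had -0.43 and was not called unless NRF2 w Cyss replicate 3 or NRF2 w/o Cyss replicate 1 was left out. The interaction placed 17 of the list higher in NRF2 cells and 0 lower, and the higher count was 16 or 17 without any single deprived library. PHLDA1, another ERK-induced gene, had 5419, 5167 and 5294 with Cyss and 12272, 13198 and 12488 without. Upstream, the EGFR ligand HBEGF (1.16) and EGFR itself (0.61) rose and EGF (-0.75) fell among 7 tested members of that family. Of 13 Kruppel-like factors 5 rose, KLF6 most (0.55), and 0 fell.

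**Figure D3:**
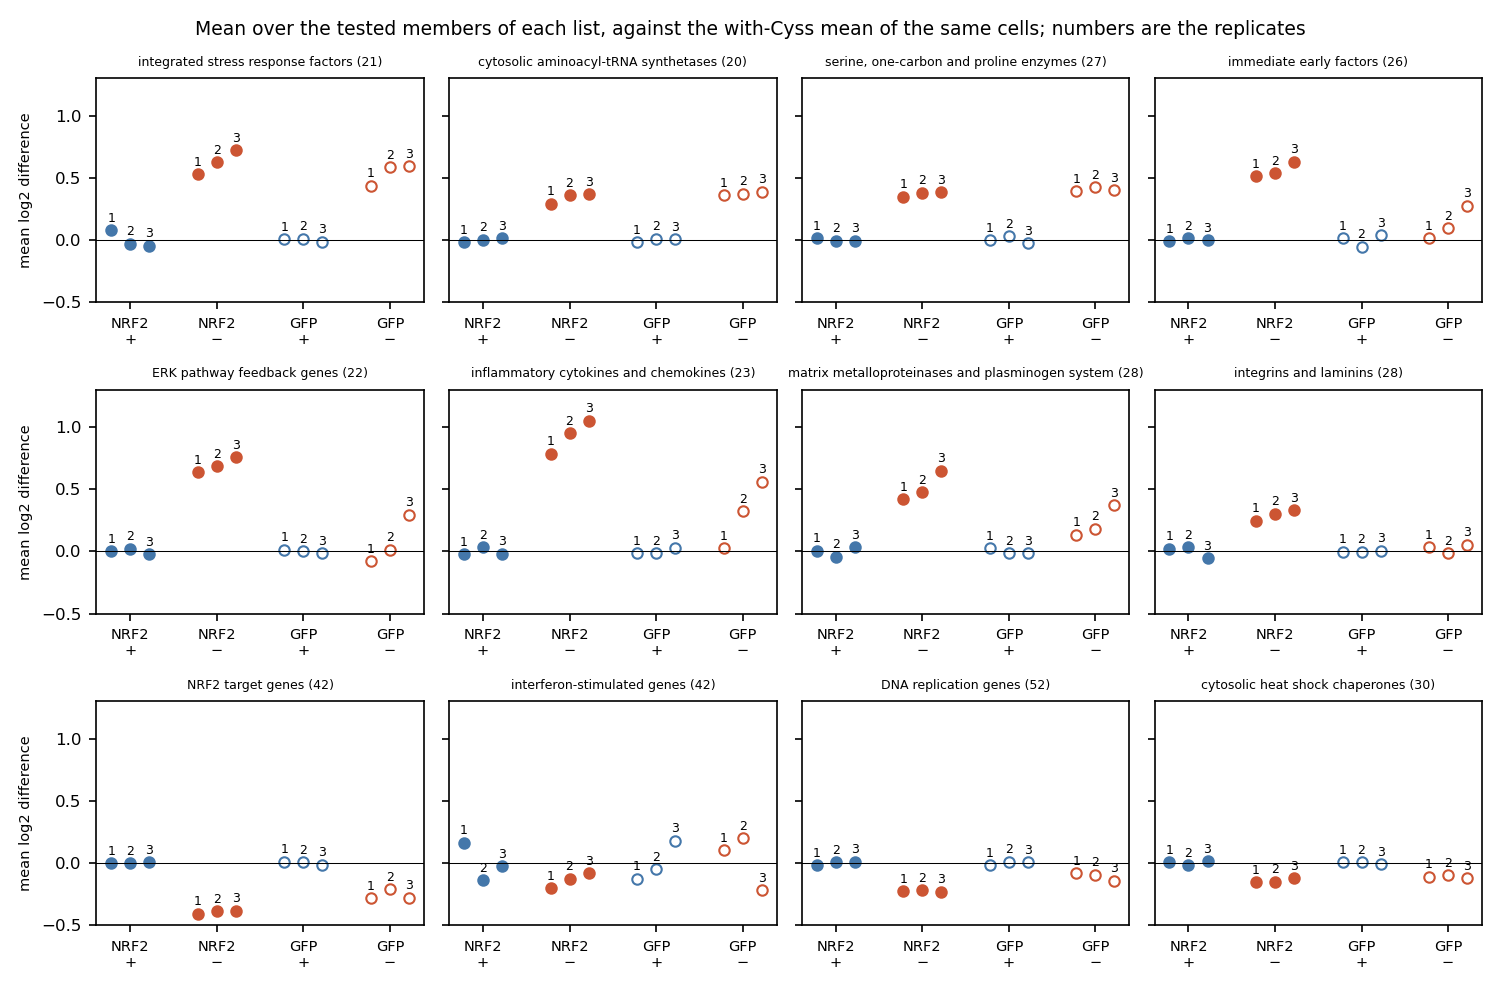
Mean log2 difference of each of 12 lists in every library from the with-Cyss mean of the same cells (y axis), with (+) and without (−) Cyss, numbers marking the replicates. For ERK-feedback genes the deprived NRF2 libraries lie at 0.64 to 0.76 and the deprived GFP libraries at -0.08, 0.01 and 0.29, replicate 3 highest, and the first 3 lists, those of the amino acid response, lie at like heights in both kinds of cell.

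Inflammatory mediators had the highest median log2FC of the lists. Of 23 tested cytokines, chemokines and related mediators 14 rose and 2 fell (median 1.11), against 6 rises and 0 falls in GFP cells, and the interaction placed 10 higher and 2 lower. PTGS2 (chromosome 1, 186640923 to 186650054 on GRCh37), the cyclooxygenase of prostaglandin synthesis, had 214, 181 and 160.4 with Cyss and 1367, 1590.1 and 1814 without (log2FC 3.11, standard error 0.112, edgeR adjusted p = 1.92e-10). The difference from GFP cells passed the test (log2FC 1.16 in GFP cells and 3.11 in NRF2 cells, difference 1.95, standard error 0.292, edgeR adjusted p = 7.84e-04), and PTGS2 overlaps the antisense gene PACERR. The neutrophil chemokines had the same pattern. IL8 (CXCL8) had 2118, 2031 and 2164 with Cyss and 6152, 7598 and 9489 without and CXCL3 had 31.9, 24.7 and 24.5 with Cyss and 108, 116 and 135 without. The interleukins IL6 (1.76), IL1B (1.96) and LIF (1.58) and the chemokine CXCL2 (1.54) rose, while CXCL12 (-0.45) and the macrophage growth factor CSF1 (-0.53) fell. IL33 rose from few reads (1.14, 5.92 and 3.07 with Cyss and 15.9, 20.2 and 20.3 without).

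Among 24 NF-kappaB subunits and feedback genes 7 rose and 2 fell, and the interaction placed 11 higher and 0 lower. The adhesion receptor ICAM1 (1.39), the co-activator NFKBIZ (0.69), the deubiquitinase TNFAIP3 (0.59) and BIRC3 (0.55) rose, and the inhibitor NFKBIA had 0.04 without a call. The 2 falls were TNIP3 (-0.44), a partner of TNFAIP3, and the adaptor TRAF1 (-0.37). MAP3K14, the kinase of the non-canonical pathway and not in the list, fell, with 632, 644 and 661 with Cyss and 340.2, 347 and 349 without. The CXCL3 promoter is shown as 1 of 4 among the 12 upregulated cytokine promoters with a match to the NF-kappaB motif, in capitals from 79 bases before the start.
CXCL3, chr4:74038690-74038939, minus strand: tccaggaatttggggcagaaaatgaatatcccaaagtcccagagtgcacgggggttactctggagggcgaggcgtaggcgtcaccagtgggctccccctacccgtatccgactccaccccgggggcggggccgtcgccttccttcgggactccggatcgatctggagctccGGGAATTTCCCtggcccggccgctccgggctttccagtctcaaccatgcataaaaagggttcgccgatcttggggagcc
The motif stood in 5.72% of all promoters and in 6.395% of those of tested genes. The share was 7.03% for upregulated DEGs and 7.41% for downregulated DEGs, so it was not higher among rises than among falls. The motif stood in 4 of the 5 upregulated members of the NF-kappaB list with a promoter.

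Genes of matrix breakdown and cell attachment rose without a fall among them. Of 28 metalloproteinase and plasminogen genes 11 rose and 0 fell in NRF2 cells (median 0.31), 4 rose in GFP cells, and 12 had the higher response in NRF2 cells. MMP1, the interstitial collagenase, had 179, 197 and 204 with Cyss and 622, 769 and 1014 without (log2FC 2.05, standard error 0.147, edgeR adjusted p = 1.42e-07). SERPINB2, an inhibitor of plasminogen activators, had 1461, 1317 and 1388 with Cyss and 4975, 6417 and 7549.8 without. No control library reached a deprived one in either gene. The activators PLAT (1.44) and PLAU (0.99), the receptor PLAUR (0.88) and the stromelysin MMP3 (1.67) also rose. Integrins and laminins rose in 9 of 28 cases, among them ITGA2 (1.17), ITGA3 (0.69) and ITGA6 (0.50), none was called in GFP cells, and 11 had the higher response in NRF2 cells, or 7 without replicate 2 of either deprived group. HAS2, which synthesises hyaluronan, had 7618, 7010.2 and 7212 with Cyss and 21707, 26408 and 28783 without (log2FC 1.82, standard error 0.0794, edgeR adjusted p = 1.63e-09), and the hyaluronan receptor CD44 (0.41) and binding protein TNFAIP6 (0.51) rose with it among 4 of 23 listed genes. In structural matrix 4 of 32 collagens (12.5%) rose, or 2 without replicate 2 of either NRF2 group, 1 fell, and 2 of 29 matrix glycoproteins and crosslinkers rose.

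Genes tied to vessels and hypoxia, secreted or not, rose in 9 of 37 cases, with 0 falls, 2 rises in GFP cells and 12 higher responses in NRF2 cells. ESM1, a proteoglycan of endothelial cells that is not in the list and the largest rise among genes with a mean of at least 50 in either medium, had 54.7, 40.5 and 51.1 with Cyss and 349, 505 and 558 without (log2FC 3.28, standard error 0.185, edgeR adjusted p = 1.20e-08). ANGPTL4, an inhibitor of lipoprotein lipase, had 28.5, 18.8 and 17.4 with Cyss and 97.5, 138 and 204 without. STC1 (1.94), VEGFA (1.19), VEGFC (0.64), the glycolytic enzyme HK2 (1.13) and the IGF-binding protein IGFBP1 (2.22) rose, whereas the hypoxia marker CA9 (0.07) and HIF1A (0.22) were not called. Targets of YAP and SRF rose in 8 of 35 cases, ANKRD1 (1.03), F3 (0.78) and CTGF (0.54) among them, but in 4 when libraries were scaled by size alone, and 4 of 32 small GTPase and actin regulators rose, led by RHOB (0.84).

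Members of the TGF-beta, activin and BMP list were called in both directions. BMP2 had 480.1, 498 and 465 with Cyss and 1568, 1674 and 2079.6 without (log2FC 1.88, standard error 0.0918, edgeR adjusted p = 3.02e-09), a response higher than in GFP cells (log2FC 0.29 in GFP cells and 1.88 in NRF2 cells, difference 1.60, standard error 0.205, edgeR adjusted p = 6.02e-04), and BMP6 rose by 1.69. The ID genes, which BMP receptors induce through SMAD1 and SMAD5, are part of the list. ID1 had 1282, 1200.3 and 1249.9 with Cyss and 934, 805 and 824 without (log2FC -0.54, standard error 0.0633, edgeR adjusted p = 1.90e-05). ID2 (-0.71), ID3 (-0.67), the inhibitory SMAD6 (-0.67) and the ligand BMP4 (-0.52) fell as well. On the activin side the subunit INHBA (0.97) and the antagonist FST (0.87) rose and the subunit INHBB fell, from 1561, 1472 and 1550.3 to 843, 662 and 640.4 (log2FC -1.10, standard error 0.0829, edgeR adjusted p = 2.32e-07). Over the whole list of 38 genes 8 rose and 9 fell, with 2 and 2 in GFP cells, and the interaction placed 11 higher and 11 lower in NRF2 cells.

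NRF2 target genes fell, while NFE2L2 itself was not called. Of 42 tested targets 19 fell and 0 rose in NRF2 cells (median -0.30, against -0.01 over all genes), and 12 fell and 1 rose in GFP cells. TRIM16L (chromosome 17, 18601311 to 18639431 on GRCh37) had 1477, 1493 and 1473 with Cyss and 544, 543 and 538 without (log2FC -1.45, standard error 0.0532, edgeR adjusted p = 1.92e-10). The spread within each medium was small beside the gap between them. It is a near copy of TRIM16, with which it can share reads. AKR1B10, an aldo-keto reductase that removes reactive aldehydes, had 255, 269 and 271 with Cyss and 108, 106 and 111 without (log2FC -1.29, standard error 0.0928, edgeR adjusted p = 1.41e-07). In GFP cells, normalized on their own, it had 116, 114 and 105 with Cyss and 71.4, 68.7 and 57.4 without. It shares sequence with AKR1B15 (-1.36), so their reads may be divided between them. NQO1, the quinone reductase, had 17799.7, 18695 and 19003 with Cyss and 11693, 12636 and 12779.6 without (log2FC -0.58, standard error 0.0477, edgeR adjusted p = 5.54e-07). The related reductases AKR1C1 (-0.63), AKR1C2 (-0.59) and AKR1C3 (-0.62), which also resemble one another, the carbonyl reductase CBR1 (-0.55), PIR (-0.64), the exporter ABCC2 (-0.95) and OSGIN1 (-0.84) fell.

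**Figure D4:**
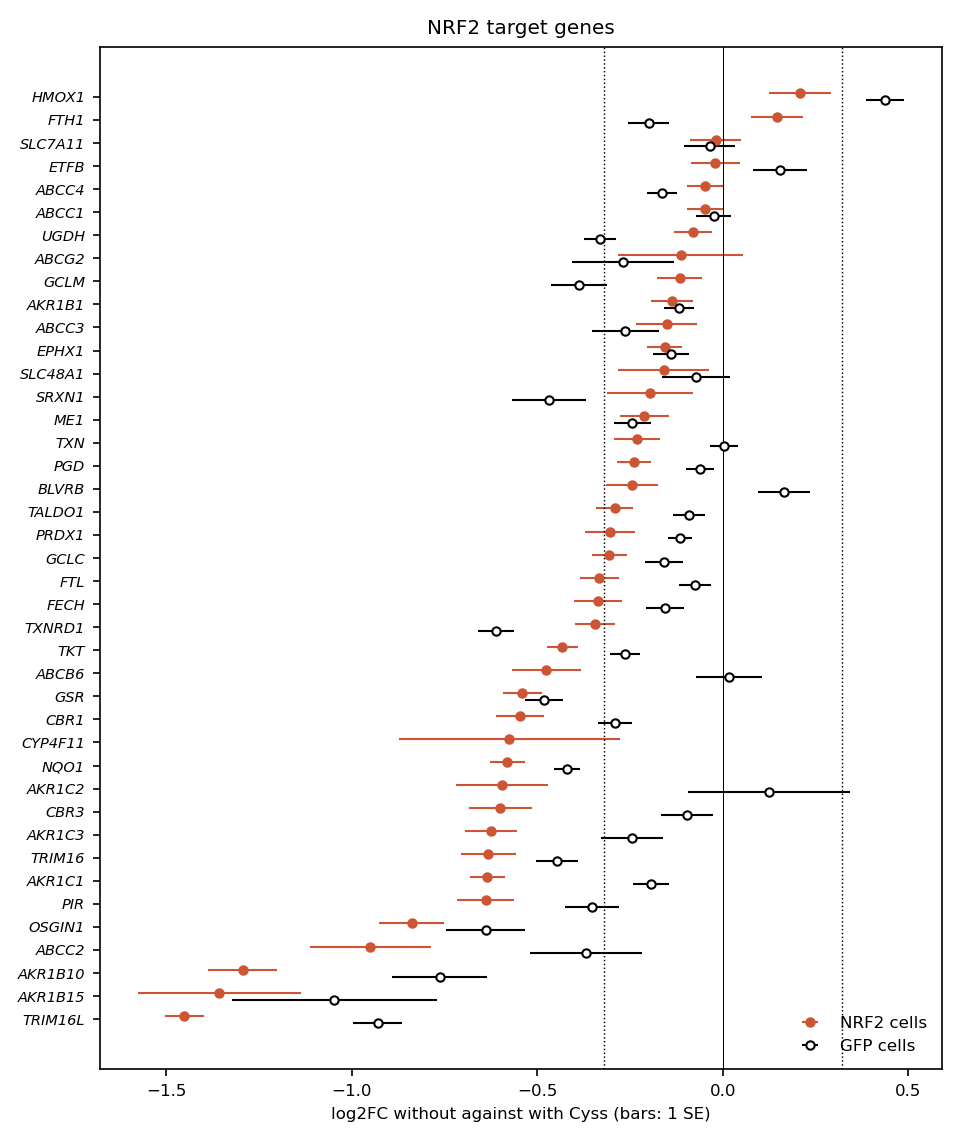
Log2FC (x axis) of 41 tested NRF2 target genes on removal of Cyss in NRF2 cells (filled) and GFP cells (open), with bars of 1 standard error and dotted lines at the thresholds of -0.32 and 0.32. TRIM16L (-1.45), AKR1B15 (-1.36) and AKR1B10 (-1.29) lie lowest in NRF2 cells, and SLC7A11 (-0.02) lies near 0.

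Not all targets were called. GCLM (-0.12) and GCLC (-0.31), the subunits of the enzyme that starts glutathione synthesis, HMOX1 (0.21), which degrades heme and passed without NRF2 w/o Cyss replicate 1 (0.32), SRXN1 (-0.20), which repairs peroxiredoxins, and the NADPH source ME1 (-0.21) were not called. GCLC passed when libraries were scaled by size alone. TXNRD1, the cytosolic thioredoxin reductase, had 14425, 14120.1 and 13829 with Cyss and 10253, 11111 and 12009 without (log2FC -0.34, standard error 0.0538, edgeR adjusted p = 3.10e-04), a weaker fall than in GFP cells (log2FC -0.61 in GFP cells and -0.34 in NRF2 cells, difference 0.27, standard error 0.0773, edgeR adjusted p = 0.0381), and it lost its call without NRF2 w/o Cyss replicate 1 (-0.29). By the interaction 16 targets had a lower response in NRF2 than in GFP cells and 3 a higher one, and the lower count was 6 without GFP w/o Cyss replicate 2, 8 without GFP w/o Cyss replicate 1 and 9 without NRF2 w/o Cyss replicate 2. The TXNRD1 promoter is shown because it holds the antioxidant response element core TGACNNNGC, in capitals from 99 bases before the start.
TXNRD1, chr12:104215529-104215778, plus strand: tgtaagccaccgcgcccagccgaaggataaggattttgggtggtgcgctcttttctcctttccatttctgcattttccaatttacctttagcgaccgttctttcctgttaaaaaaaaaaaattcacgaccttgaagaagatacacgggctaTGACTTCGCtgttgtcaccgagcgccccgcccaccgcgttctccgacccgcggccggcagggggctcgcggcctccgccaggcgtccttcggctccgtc
TGACNNNGC, which can overlap the AP-1 site TGACTCA, stood in 13.6% of all promoters, in 15.1% of those of tested genes and in 5 of the 14 downregulated targets with a promoter.

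Around these targets, 5 of 36 glutathione and peroxidase genes (13.9%) fell and 2 (5.56%) rose, CHAC1 and GSTO2. Over all genes 5.14% fell and 6.81% rose. GSTO2 lost its call under the Wald test of DESeq2. The same held without NRF2 w Cyss replicate 1 or 2 or NRF2 w/o Cyss replicate 2. Glutathione reductase GSR (-0.54), the transferases GSTM2 (-1.08) and MGST1 (-0.40) and the peroxidase GPX1 (-0.37) were among the falls, and GPX4 (-0.08), which reduces lipid peroxides, was not called. The falls in this list numbered 8 without NRF2 w/o Cyss replicate 2 and 9 without replicate 3 of that group. GSR had 2275, 2127 and 2321 with Cyss and 1616, 1527 and 1481 without. Of 26 thioredoxin and peroxiredoxin genes 4 fell, TXNRD1, TXNRD3, MSRB1 and MSRB2, and TXN itself had -0.23 without a call. A single fall was called without NRF2 w/o Cyss replicate 1, and 2 without NRF2 w Cyss replicate 3. Of 16 pentose phosphate and NADPH enzymes 1 fell, transketolase (-0.43). Regulators of NRF2 moved in 3 of 17 cases, all upward: the small MAF partners MAFF (1.06) and MAFK (0.51) and the competing repressor BACH1, which had 1226, 1212 and 1135 with Cyss and 1701, 1826 and 1660.3 without (log2FC 0.54, standard error 0.0553, edgeR adjusted p = 5.52e-06). KEAP1 (-0.22) and SQSTM1 (-0.25), the adaptor that sequesters it, were not called.

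Iron and ferroptosis genes were called in both directions, 4 of 38 (10.5%) rising and 5 (13.2%) falling, against 6.81% and 5.14% of all genes. The iron importers TFRC (0.45) and SLC39A14 (0.52), the lipid enzyme ACSL4 (0.34) and the polyamine enzyme SAT1 (0.52) rose, and the iron exporter SLC40A1 (-0.78) and ferritin light chain FTL (-0.33) fell, while ferritin heavy chain FTH1 (0.15) was not called. TFRC had 24925, 25386 and 24601 with Cyss and 31594, 35578 and 35343 without, without overlap. The calls of ACSL4, SLC40A1 and FTL were each lost under at least 1 alternative, and 2 falls of the list were called without NRF2 w Cyss replicate 1 and 3 without replicate 2 or 3 of that group. Of 8 tested metallothionein and zinc exporter genes 4 rose, all of them metallothioneins, and 0 fell. MT2A had 5939, 5101 and 5372 with Cyss and 9569, 10227 and 11470.3 without (log2FC 0.93, standard error 0.0672, edgeR adjusted p = 1.47e-07). MT1X (0.60), MT1M (0.55) and MT1E (0.41) are close relatives and may share reads. Cytosolic heat shock chaperones fell in 6 of 30 cases and rose in 0. HSPA1A, an inducible HSP70, had 2470.2, 2359 and 2390.4 with Cyss and 1669, 1534 and 1299 without. HSPA1B (-0.68), its near-identical copy, and the constitutive HSPA8 (-0.36) fell with it.

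Interferon-stimulated genes fell in 9 of 42 cases and rose in 2, ISG20 and IFI16 (median -0.22), whereas GFP cells had 2 rises and 0 falls. The interaction placed 6 lower and 2 higher in NRF2 cells, the lower count being 2 without GFP w/o Cyss replicate 2, 3 without GFP w/o Cyss replicate 1 or NRF2 w/o Cyss replicate 2, and 10 without GFP w/o Cyss replicate 3. IFIT1, an RNA-binding antiviral protein, had 153, 122 and 118 with Cyss and 57.7, 83.6 and 70.0 without (log2FC -0.88, standard error 0.153, edgeR adjusted p = 7.34e-04). Each deprived library lay below each control. IFIT2 (-0.58), the ubiquitin-like modifier ISG15 (-0.45), the RNA sensor IFIH1 (-0.46) and the immunoproteasome subunit PSMB9 (-0.50) fell too, and the calls of IFIT2 and IFIH1 were lost under the Wald test of DESeq2. Across the list NRF2 w Cyss replicate 1 lay highest, and without it the median was -0.07 with 7 falls, whereas 5 falls were called without NRF2 w Cyss replicate 3. The IFIT1 promoter is shown as 1 of 5 among 8 downregulated members with a match to the interferon-stimulated response element, in capitals on the reverse strand from 116 and 103 bases before the start.
IFIT1, chr10:89392373-89392622, plus strand: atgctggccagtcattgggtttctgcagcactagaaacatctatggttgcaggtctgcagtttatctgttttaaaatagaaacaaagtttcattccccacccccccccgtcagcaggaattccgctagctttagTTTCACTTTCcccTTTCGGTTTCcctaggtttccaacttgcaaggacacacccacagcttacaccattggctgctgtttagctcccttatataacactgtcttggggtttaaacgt
The motif stood in 3.65% of all promoters, in 2.89% of those of tested genes and in 28 of 553 (5.06%) of those of downregulated DEGs.

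DNA replication genes fell without a rise among them. Of 52 tested 13 fell and 0 rose (median -0.23), 2 fell in GFP cells, and the interaction placed 13 lower and 2 higher in NRF2 cells, the lower count being 5 without GFP w/o Cyss replicate 2 and 7 without GFP w/o Cyss replicate 1. ORC1, the largest subunit of the origin recognition complex, had 844, 886 and 869 with Cyss and 556, 566 and 519 without (log2FC -0.66, standard error 0.0609, edgeR adjusted p = 1.60e-06). The licensing inhibitor GMNN (-0.60), the histone chaperone CHAF1B (-0.51), the polymerase subunit POLE2 (-0.49) and cyclin E2 (CCNE2, -0.43) fell. Few mitosis genes were called: 1 of 51 rose, CENPF (0.34), and 0 fell. Of 21 canonical histone genes 2 fell.

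Growth arrest and p53 target genes rose in 10 of 30 cases and fell in 2. CDKN1A, the cyclin-dependent kinase inhibitor p21, had 1203, 1212 and 1167 with Cyss and 2669, 3125 and 3937 without (log2FC 1.44, standard error 0.102, edgeR adjusted p = 1.28e-07). The death receptor TNFRSF10B (0.68) and the kinase PLK3 (0.80) rose, and so did PMAIP1 (1.54), which encodes the killer protein NOXA and had 883, 845 and 811 with Cyss and 2210.1, 2765 and 2387 without. Within the BCL2 family of 16 tested genes, 5 rose and 2 fell, and the members did not share a function. The protective MCL1 (0.55), BCL2L1 (0.45) and BCL2A1 (low counts, 1.29) rose alongside the killers PMAIP1 and BBC3 (0.58), and the killers BMF (-0.66) and BCL2L11 (-0.33) fell. The calls of BCL2A1, BBC3 and BCL2L11 were each lost on leaving out at least 1 library.

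Ribosome biogenesis genes rose in part, and few ribosomal protein genes were called. Ribosome biogenesis genes rose in 10 of 62 cases (median 0.14), including MYC (0.69), none was called in GFP cells, and 19 had the higher response in NRF2 cells. MYC had 2551, 2549 and 2544 with Cyss and 3982, 4067 and 4259.6 without. Of 78 cytosolic ribosomal protein genes 1 fell, RPL39 (-0.37), with a median of -0.11 and 3 genes above 0, and the median was -0.04 with 0 falls without NRF2 w/o Cyss replicate 1 and -0.17 with 4 falls without replicate 3. Mitochondrial ribosomal protein genes had a median of -0.10 with 1 rise of 75. Translation factors rose in 8 of 80 cases, EIF1 (0.52) and the ATF4 target EIF4EBP1 (0.56) among them, with pseudogenes of EIF2S2 included in the count. Protein genes of the mitochondrial genome rose in 6 of 13 cases (median 0.28), led by MT-CYB (0.47), yet 1 rise was called without NRF2 w/o Cyss replicate 1 and 2 when libraries were scaled by size alone. Of 97 nuclear respiratory chain genes 1 rose and 2 fell (median -0.14), with 8 falls when NRF2 w/o Cyss replicate 3 was left out. The length of genes moved with these results: among protein-coding genes the median log2FC went from -0.09 in the fifth with the shortest transcripts to 0.07 in the fifth with the longest, while in GFP cells it went from 0.03 to -0.04. The part of length in the list results was not tested.

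Many functions showed few calls, most of them near or below the shares over all genes. No purine and pyrimidine synthesis enzyme of 27 and no autophagy gene of 37 was called by edgeR's quasi-likelihood test, and the same counts held when single libraries were left out except for 2 autophagy genes at most. Of 43 proteasome genes 1 fell and 0 rose. Chromatin regulators had 2 rises and 1 fall of 66, splicing factors 2 and 1 of 104, and snoRNA host RNAs 0 and 1 of 24. Of 457 ZNF genes 19 rose and 16 fell. In cholesterol metabolism 2 of 30 rose, the exporters ABCA1 (1.10) and NPC1 (0.34), and 4 (13.3%, above the 5.14% of all genes) fell, or 2 without NRF2 w Cyss replicate 3, with MYLIP (-0.81), which degrades the LDL receptor, and the mevalonate enzymes MVK (-0.38) and MVD (-0.35) among them. Fatty acid genes rose in 2 of 31 cases. Among receptor genes that classify breast cancers, ERBB2 was at 1072 to 1290 normalized counts.

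The largest falls lay mostly outside these lists. RP11-443P15.2, a transcript named by its clone, had 309, 311 and 296 with Cyss and 87.5, 95.1 and 97.7 without (log2FC -1.71, standard error 0.0943, edgeR adjusted p = 1.02e-08), and fell in GFP cells too, by a log2FC of -1.54. PART1, a long noncoding RNA, had 79.8, 85.9 and 67.5 with Cyss and 32.8, 34.6 and 23.96 without. The zinc finger gene ZSCAN31 (-1.22), the ubiquitin-conjugating enzyme gene UBE2QL1 (-1.20), the glucose transporter SLC2A12 (-1.14) and the receptor gene CALCRL (-1.13) followed. Long noncoding RNAs as a class had 52 falls of 551 tested (9.44%) and 32 rises.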

How the data were processed

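Total RNA of Hs 578T cells was sequenced as unstranded TruSeq libraries. Per the labels and the study's methods, the authors aligned reads to hg19 with TopHat2 2.1.0 and Bowtie and made the deposited counts per gene with HTSeq 0.11.2 without regard to strand; the gene annotation is not given in the sources used here. The deposited values are raw read counts, with 5 counter entries per library for unassigned reads (15.9% to 17.1% in NRF2 libraries), left out, as were 523 rRNA genes, after the study. The 6 NRF2 libraries were normalized on their own by TMM, giving the normalized counts printed here, and genes with a mean of at least 10 in either medium were tested with the quasi-likelihood test of edgeR 4.0.16 (R 4.3.3) and Benjamini-Hochberg adjustment. The 6 GFP libraries were treated likewise, and the difference between the responses is the interaction term of a fit to all 12. Counts of 1 gene between libraries are compared, never levels between genes. The scripts were tested on simulated data. DESeq2 1.42.0, other scalings, filters and thresholds, a replicate block and each library left out were tried as alternatives.

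The gene lists, thresholds and naming rule were chosen with earlier results of these data known. Named are, per direction, the 15 DEGs of largest log2FC whose media do not overlap and whose higher mean reaches 50, the 8 with the smallest adjusted p, the 5 largest of each list with members whose role is described, NFE2L2 and its regulators, and the 10 largest differences from GFP cells; others are said to be chosen after their values were seen. Positions are from GENCODE 44 on GRCh37, in which 33529 of 55765 symbols were found as listed and 1892 under a newer name. Promoters are from RefSeq on GRCh38.p14 and matched 10727 of 17266 tested genes by symbol. A few genes are not reported here.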

Additional observations from a re-analysis of the deposited data

Results flagged for a closer look

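The response to removal of Cyss differed between NRF2 and GFP cells for many genes by the interaction term, with 1585 genes higher and 1084 lower in NRF2 cells at an adjusted p under 0.1 in edgeR's quasi-likelihood test. Differences are given as the log2FC in NRF2 cells minus that in GFP cells, and mean normalized counts (with and then without Cyss) come from the joint normalization of the 12 libraries.

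Among genes that had a higher response in NRF2 cells, the largest difference was that of ESM1 (2.45, adjusted p = 0.00780 by edgeR), with means of 52.2 and 505 in NRF2 cells and 57.0 and 102 in GFP cells. ANGPTL4 followed at 2.13, PTGS2 at 1.95, EGR1 at 1.76, SERPINB2 at 1.60 and BMP2 at 1.60. For CDCP1, a transmembrane substrate of Src kinases, the difference was 1.63, with means of 39.7 and 85.7 in NRF2 cells and 43.2 and 29.9 in GFP cells. RP11-594N15.3 (1.89), HSD3BP5 (1.77) and RP11-355I22.7 (1.72) completed the group, the last with means of 42.4 and 99.0 in NRF2 cells and 53.9 and 37.97 in GFP cells. In these 4 genes the mean was lower without Cyss in GFP cells and higher without Cyss in NRF2 cells. ESM1, ANGPTL4 and PTGS2 were highest in replicate 3 among the deprived GFP libraries.

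Among genes that had a lower response in NRF2 cells, RP5-952N6.1 (-1.43) and ACKR3 (-1.41), a scavenger receptor for CXCL12, came first, and ACKR3 had means of 52.1 and 15.7 in NRF2 cells and 18.2 and 14.7 in GFP cells. The ranges of its deprived NRF2 libraries and of the GFP libraries overlapped. PPP1R3C, a glycogen-targeting subunit of protein phosphatase 1, differed by -1.17, with means of 96.1 and 56.6 in NRF2 cells and 90.7 and 119 in GFP cells. UBE2QL1 differed by -1.13, with means of 223 and 97.4 in NRF2 cells and 213 and 203 in GFP cells. ACTA2-AS1 (-1.16), PART1 (-1.06), a transcript named by its clone (-1.004), MFI2-AS1 (-0.99), CORO6 (-0.98) and the transcription factor gene OSR2 (-0.96) followed. ACTA2-AS1 and MFI2-AS1 are antisense genes, and reads without strand cannot be told apart from those of their partners.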

How the results depend on the processing

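Upregulated DEGs numbered 1028 to 1286 and downregulated DEGs 734 to 1002 with single libraries left out, against 1176 and 887. The count of downregulated DEGs rose to 1397 with scaling by library size alone, and without a fold change threshold there were 2633 and 2379; the Wald test of DESeq2 gave 963 and 611, with 3014 adjusted p-values NA. Called list members, 364 in all, numbered 339 to 391. The counts of differences from GFP cells were less stable: 913 to 2119 higher and 482 to 1562 lower with single libraries left out. They moved over 1.5 times without NRF2 w Cyss replicate 3 (964 and 590), GFP w/o Cyss replicate 2 (913 and 482), and, for lower responses, GFP w Cyss replicate 1 (609) or 3 (705) and GFP w/o Cyss replicate 1 (666). Lower responses numbered 1981 with library size alone and 528 at an adjusted p under 0.05. Of 289 named genes called, 229 kept the call in every alternative run, 60 lost it in at least 1, 33 of them only on leaving a library out, and 0 changed sign. Of 106 counts over lists, 51 stayed within 1.5 times. Over all tested genes, deviations of same-numbered libraries correlated at 0.01, 0.06 and 0.01 between the media in NRF2 cells. Between deprived NRF2 and deprived GFP libraries they correlated at 0.07, -0.02 and 0.14, and NRF2 replicate 1 with GFP replicate 3 at -0.145. Single genes could still share an order by replicate number. In the joint normalization DUSP6 had 3235, 4257 and 4956 in deprived NRF2 libraries and 784, 1076 and 2297 in deprived GFP libraries. SERPINB2 rose from replicate 1 to 3 in both groups too, whereas EGR1 did so in GFP cells only. How many genes share such an order was not tested. With the replicate block the counts were 1192 and 930, and for the differences 2005 and 1453. The counts of differences by list without single deprived libraries were chosen after seeing the data. The causes were not tested. Genes with few reads were measured with less precision, such as IL33 and GDF15, with standard errors of 0.413 and 0.615.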

Other observations

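The genes below were chosen after their values were seen. The HOXA cluster, a row of homeobox factor genes that sets positional identity, fell nearly as a block in NRF2 cells: of 11 tested HOXA genes 9 were downregulated and 0 upregulated, with a median log2FC of -0.53. HOXA5 had 192, 176 and 192 with Cyss and 119, 108 and 106 without (log2FC -0.75, standard error 0.105, edgeR adjusted p = 1.14e-04). HOXA9 had 326, 313 and 299 with Cyss and 253, 217 and 224 without, with a log2FC of -0.44. In HOXA5 and HOXA9 every deprived library was below every control. HOXA7 (0.05) and HOXA11 (-0.31) were not called, and the antisense RNAs HOXA-AS2 (-0.71), HOXA-AS3 (-0.76) and HOXA-AS4 (-0.60) were downregulated. Strand was not kept, so HOXA genes and the antisense RNAs that overlap them cannot be told apart. The interaction with GFP cells passed for HOXA5 (-0.65), HOXA-AS2 (-0.63), HOXA2 (-0.76), HOXA9 (-0.33) and HOXA10 (-0.31) and not for HOXA3, HOXA4, HOXA6 or HOXA13.

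Further regulators outside the lists rose more in NRF2 than in GFP cells. HMGA2, a chromatin protein of embryonic and tumor cells, had 1585, 1466 and 1532 with Cyss and 3186, 3339 and 3652 without (log2FC 1.15, standard error 0.0572, edgeR adjusted p = 3.74e-09), and the difference from GFP cells was 0.90. Its relative HMGA1 had a log2FC of 0.70 and a difference of 0.60. CD274, which encodes the checkpoint ligand PD-L1, had 179, 166 and 129 with Cyss and 303, 415 and 463 without (log2FC 1.32, standard error 0.147, edgeR adjusted p = 1.19e-05) and a difference of 1.05. SOCS3, the feedback inhibitor of cytokine signalling through STAT3, had 642, 637 and 679.6 with Cyss and 1105, 1227 and 1482 without and a difference of 0.81. MYB had 185, 162 and 151 with Cyss and 321, 353 and 323 without and a difference of 0.95. All 5 genes were without overlap between media in NRF2 cells, and in all 5 the interaction passed at an adjusted p under 0.1 in edgeR's quasi-likelihood test. As the 5 were chosen after these values were seen, this is no further evidence for them.

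Counting genes by the root of their symbol, 12 of 30 tested KRT symbols were upregulated, mostly pseudogenes of KRT18, whose own values were 723, 776 and 738 with Cyss and 1066, 1233 and 1246 without (log2FC 0.66). KRT8, the partner of KRT18, was not called (0.28). Among 22 HSPA symbols, which include pseudogenes of HSPA8, 10 were downregulated and 1 upregulated. Symbols of a gene and its pseudogenes can share reads and do not count as separate genes.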
